A study of Homo sapiens with 4 samples.

Results

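The chaperonin containing TCP1 (CCT, also called TRiC) is built from the products of 8 genes, TCP1, CCT2, CCT3, CCT4, CCT5, CCT6A, CCT7 and CCT8. The members were taken as these subunit genes by symbol, and all 8 of 8 were found once each among the 64252 gene identifiers of the count table and passed the low-count filter that left 17461 genes. RNA sequencing was done on J.gamma1 cells, a T-cell acute lymphoblastic leukemia line derived from Jurkat that lacks phospholipase C gamma 1, so that both groups share this defect. In 2 libraries, called shNC, the cells carried a control short hairpin RNA, and in the other 2, called shELOVL5, a hairpin against the fatty acid elongase gene ELOVL5. One line and one hairpin against ELOVL5 were used. Whether the 2 libraries of a group came from separate cultures is not in the labels, and the p-values then reflect only library-to-library spread, which may be technical. The comparison asks which transcripts differ when ELOVL5 is knocked down, and here whether the chaperonin subunits moved together.

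CCT is a double ring in the cytosol, in which each ring holds one copy of each subunit. It takes in unfolded actin and tubulin, closes over them when it binds and hydrolyses ATP, and releases them folded; many proteins with WD40 repeats, such as the mitotic activator CDC20, also depend on it. Prefoldin delivers nascent chains to it, phosducin-like proteins assist it, and tubulin folding cofactors take over the tubulins it releases. The complex is abundant in dividing cells, leukemia lines among them.

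The subunits did not move as one block. In shELOVL5 the CCT2 transcript fell by 18.4%, CCT8 fell by 15.9%, CCT4 fell by 9.93% and CCT7 fell by 9.63%, while TCP1, CCT3, CCT5 and CCT6A did not pass the test. So 4 of 8 subunits were called lower and 0 were called higher at an adjusted p under 0.05 (edgeR's quasi-likelihood test, Benjamini-Hochberg adjustment over all tested genes), against 11.2% of all tested genes called lower and 9.22% called higher (1952 and 1610 genes). Which direction held more calls over all genes turned with the scaling, at 1674 lower and 1933 higher by total counts alone. Abundant genes pass more easily: among the 291 genes whose mean level lay between that of the lowest and the highest subunit, 35.1% were called lower and 23.0% higher. The share of subunits called lower was thus nearer to that of equally abundant genes than to that of all genes. No subunit was higher at an unadjusted p under 0.05 either, and DESeq2 and limma-voom also called 4 lower and 0 higher.

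ELOVL5 itself was at 342 and 353 CPM in shNC and 71.8 and 70.0 CPM in shELOVL5, lower in both knockdown libraries as labelled (CPM, the count scaled to a common library size with TMM factors). Total counts were between 16254002 and 17338719 per library. Of 10 T cell and T-ALL markers all were tested, with CD2 lowest at 2.003 to 3.59 CPM, and their summed level was 2592 and 2642 CPM in shNC and 2133 and 2075 CPM in shELOVL5. Of them 5 were called lower (CD3D, CD247, LCK, TAL1 and LEF1) and 2 higher (CD3E and CD3G), against 11.2% and 9.22% of all tested genes. Among genes as abundant as the subunits these shares were 35.1% and 23.0%, but of the markers only CD3E and LCK lie in that range. Most of the drop in the sum came from LEF1, at 855 and 893 against 456 and 446 CPM. Of 12 markers of B, myeloid, erythroid, epithelial and fibroblast cells, LYZ, HBB, EPCAM and DCN were among those at 0 in all libraries. The summed level of the second list was 48.8 to 55.4 CPM in shNC and 36.4 to 39.0 CPM in shELOVL5, most of it from CD79A. The part of either list in the results was not tested, and in bulk RNA fewer cells of a type and less RNA per cell cannot be told apart.

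The genes lie apart in the genome, apart from CCT4 and CCT7 on different parts of chromosome 2 (GRCh38, GENCODE 29). TCP1 is on chromosome 6 (159778498 to 159789749, minus strand), CCT2 on 12 (69585334 to 69601570, plus), CCT3 on 1 (156308968 to 156367873, minus) and CCT4 on 2 (61868089 to 61888804, minus). CCT5 is on chromosome 5 (10249921 to 10266412, plus), CCT6A on 7 (56051630 to 56063989, plus), CCT7 on 2 (73233420 to 73253021, plus) and CCT8 on 21 (29055805 to 29073797, minus). Their principal transcripts have 11 to 16 exons. The starts were read for short motifs because members in different places that fall together could share promoter letters. RefSeq windows (GRCh38.p14) were found for 7 of the 8 genes, CCT6A being the missing entry, and the 250 bases before each RefSeq start were searched on both strands. RefSeq starts lie inside the GENCODE gene bounds for all 7, because GENCODE holds longer transcripts. The windows of CCT3, CCT5 and CCT7 and the second of 2 CCT2 windows lie wholly within their genes.

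The ETS core CTTCCG, a letter sequence bound by ETS-family factors, was found in windows of TCP1, CCT2, CCT5 and CCT7, 4 of 7 genes against 16.5% of 35116 RefSeq windows of the same length. It thus occurred in windows of subunits that fell and of subunits that did not pass. The 30-base stretches that hold it are shown because they compare members of both kinds. They are printed (GRCh38.p14; TCP1 minus strand, the others plus) 5′ to 3′ on the gene's strand with the core, or its complement CGGAAG, in capitals. They lie 195 and 112 bases before the TCP1 start, 15 before the first of 2 CCT2 starts, 63 before the CCT7 start and 248 before the CCT5 start. Only the first TCP1 stretch lies outside annotated exons.
TCP1, chr6:159789780-159789809: tccaacatccgaCTTCCGttctccgctttc
TCP1, chr6:159789697-159789726: cccggagcctcaCTTCCGtcacagtcctgt
CCT2, chr12:69585429-69585458: gggcgtgtggcgtcaCTTCCGgcttccttc
CCT7, chr2:73234233-73234262: accatagagtagCGGAAGtggtccgttctc
CCT5, chr5:10250287-10250316: cgCTTCCGtagcggtctccgccggttgggg

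The CCAAT box, bound by the factor NF-Y, or its complement ATTGG, was found in windows of TCP1, CCT2, CCT3 and CCT8, again 4 of 7 against 11240 of the 35116 windows. CCT2 and CCT8, the subunits with the largest falls, share it with TCP1 and CCT3, whose fold changes were nearest to 0. It is in capitals in these stretches (GRCh38.p14; CCT2 plus strand, the others minus), of which only that of TCP1 has its match outside annotated exons.
TCP1, chr6:159789739-159789768: atcggctatctaATTGGacaaaaatgccga
CCT2, chr12:69585356-69585385: gcccgtggggctCCAATcaaaatgggacgc
CCT3, chr1:156338350-156338379: ctaaggctgtcaATTGGtctgtttttgtgc
CCT3, chr1:156338309-156338338: atgggtgcggtgATTGGcgactaccttgag
CCT8, chr21:29073694-29073723: aagggtgggctaATTGGagagccaggaaga

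The GC box GGGCGG was in 4 of 7 (42.6% of windows), the cyclic AMP element core TGACG in 4 (21.2%) and the heat shock pattern GAANNTTC in 2, TCP1 and CCT2 (5.78%). In TCP1 the match to TGACG, on the other strand, overlaps the second ETS core. The E-box CACGTG (6.34% of windows), the other heat shock order TTCNNGAA (6.62%), the ATF4 element core TGATGNAA (3.14%) and TATAAA (10.7%) were in none of the 7. CCT2 and CCT4 each have 2 RefSeq starts, and their 2 windows are set against shares of single windows. The heat shock match of CCT2 lies before its second start, while its ETS core and CCAAT box lie before the first. CCT4 held only TGACG of the 9 motifs. A match is a string of letters in one window and says nothing of a factor at work there.

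CCT2, the beta subunit, gave the largest difference. It stood at 435 and 434 CPM in the shNC libraries and at 353 and 356 CPM in the shELOVL5 libraries. The group means were 434 ± 0.686 and 355 ± 1.90 CPM (SD, n = 2), with a log2 fold change of -0.29 (SE 0.0378, adjusted p = 0.000401). These SDs of 2 values are below the counting error of 1.30% for its lowest library, so they understate the spread. CCT8, the theta subunit, followed with 402 and 388 CPM in shNC and 335 and 330 CPM in shELOVL5. Both shELOVL5 values were below both shNC values (log2 fold change -0.25, SE 0.0403, adjusted p = 0.00159). The CCT2 and CCT8 calls held in 13 of 14 alternative settings, the exception being a test against a 1.2-fold change (adjusted p = 0.425 and 0.858).

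CCT4, the delta subunit, was at 341 and 345 CPM in shNC and 316 and 302 CPM in shELOVL5. The groups did not overlap (log2 fold change -0.15, SE 0.0418, adjusted p = 0.0274). CCT7, the eta subunit, was at 492 and 480 CPM in shNC and 445 and 433 CPM in shELOVL5, also with no overlap (log2 fold change -0.15, SE 0.0383, adjusted p = 0.0215). These smaller falls are less firmly called than those of CCT2 and CCT8. Without shELOVL5 replicate 1 the adjusted p was 0.0610 for CCT4 and 0.0707 for CCT7, and without shELOVL5 replicate 2 it was 0.204 and 0.160. CCT4 also missed the threshold without shNC replicate 2 (0.0585), and both missed it under scaling by total counts alone (0.0732 and 0.0605) or with no low-count filter (0.0682 and 0.0537).

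CCT5, the epsilon subunit, was at 394 and 376 CPM in shNC and 366 and 365 CPM in shELOVL5. Both shELOVL5 values were the lower ones, but the difference was of the size of the spread between the shNC libraries (log2 fold change -0.07, 95% interval -0.17 to 0.02, adjusted p = 0.244). TCP1, the alpha subunit that gave the complex its name, was at 620 and 628 CPM in shNC and 626 and 618 CPM in shELOVL5, with the groups overlapping. Its interval of -0.08 to 0.07 on the log2 scale excludes a fall of the size fitted for any of the 4 subunits that passed. CCT3, the gamma subunit, was at 504 and 534 CPM in shNC and 517 and 530 CPM in shELOVL5, so that the shELOVL5 values lay between the shNC values (log2 fold change 0.01, 95% interval -0.08 to 0.10). CCT6A, the main zeta subunit, was at 361 and 342 CPM in shNC and 356 and 337 CPM in shELOVL5, again overlapping (log2 fold change -0.02, 95% interval -0.12 to 0.08). The fitted sign of TCP1, CCT3 and CCT6A changed between settings, and total-count scaling alone made those of TCP1 and CCT6A positive. Over the 8, groups did not overlap for 5, where 60.1% of all tested genes show no overlap.

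**Figure D1:**
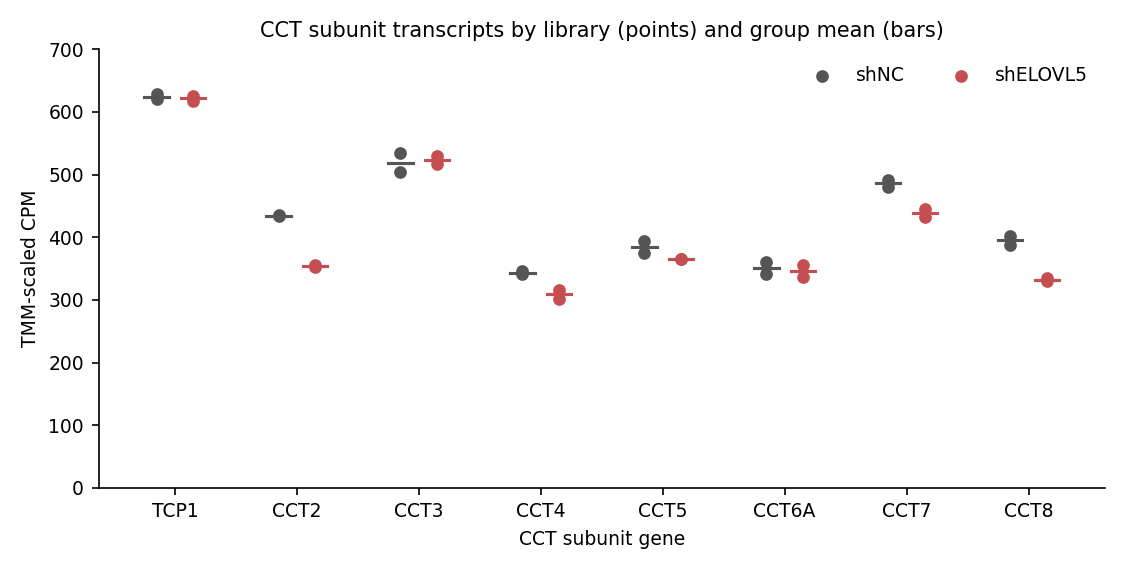
Level of each CCT subunit transcript in TMM-scaled CPM (vertical axis, from 0) by gene, with 1 point per library and a bar at each group's mean of 2 libraries. The shELOVL5 points lie below the shNC points for CCT2, CCT4, CCT5, CCT7 and CCT8 and the groups overlap for TCP1, CCT3 and CCT6A.

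Counts per subunit and library lay between 4990 and 10938, so that the counting error of the lowest library of each gene was 0.996% to 1.42%. The 8 fold changes had a median of -0.11 on the log2 scale, an SD of 0.11 and a range of 0.31, with SEs of 0.0350 to 0.0455. The spread between subunits was thus about as large as the median fall. The median over all tested genes was 0.01, and over the 291 equally abundant genes -0.03.

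Ratios of counts within a library do not depend on how libraries are scaled. CCT2 over TCP1 was 0.701 and 0.691 in shNC and 0.564 and 0.576 in shELOVL5, and CCT8 over TCP1 was 0.649 and 0.617 against 0.535 and 0.533. CCT4 over TCP1 went from 0.549 and 0.550 to 0.504 and 0.489, and CCT7 over TCP1 from 0.793 and 0.765 to 0.711 and 0.701. None of these 4 ratios overlapped between groups. Of all tested genes 60.1% show no overlap in the CPM of the single gene, and no such share was computed for ratios. TCP1 had a log2 fold change of -0.005, so ratios to it mostly restate the falls given above. CCT6A over TCP1 (0.582 and 0.545 against 0.568 and 0.546) and CCT3 over TCP1 (0.813 and 0.851 against 0.826 and 0.858) did overlap. CCT5, which did not pass, had ratios to TCP1 of 0.636 and 0.598 against 0.585 and 0.591, without overlap. Among the subunits that fell, CCT4 over CCT7 overlapped, at 0.693 and 0.719 in shNC and 0.709 and 0.698 in shELOVL5. CCT2 over CCT8 did not, but only just, at 1.081 and 1.119 in shNC and 1.056 and 1.080 in shELOVL5. The gap between 1.081 and 1.080 is smaller than the counting error of CCT2 (1.30%) or CCT8 (1.36%) in its lowest library. The ratios were described and not tested.

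Together the 8 genes held 3549 and 3527 CPM in shNC and 3314 and 3271 CPM in shELOVL5, so that the sum fell by 6.93% with no overlap between groups (described, not tested). As a share of all counts, before TMM scaling, they held 0.350% and 0.348% in shNC and 0.334% and 0.331% in shELOVL5. Within the sum, CCT2 went from 12.25% and 12.30% in shNC to 10.66% and 10.88%, and CCT8 from 11.3% and 11.0% to 10.1% in both. TCP1 made up 17.5% and 17.8% in shNC and 18.9% in both shELOVL5 libraries. A share rises when others fall, so the TCP1 share is no sign of more TCP1 transcript.

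**Figure D2:**
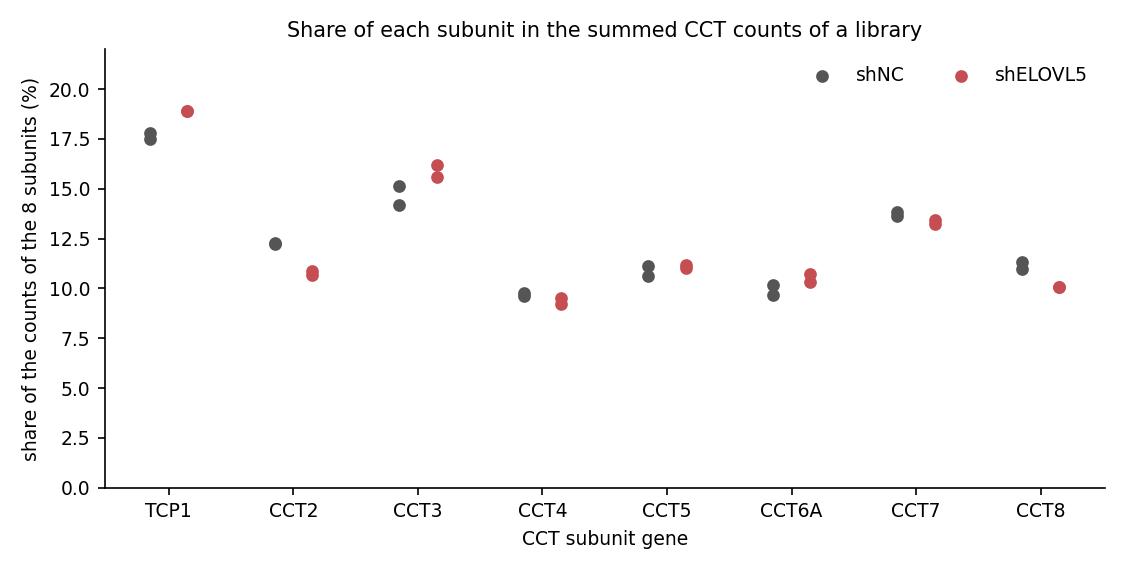
Share of each subunit gene in the summed counts of the 8 genes in a library (vertical axis, percent, from 0), with 1 point per library. CCT2 and CCT8 take smaller shares in both shELOVL5 libraries and TCP1 and CCT3 larger ones.

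In structural studies the subunits follow one another around the ring in the order TCP1, CCT4, CCT2, CCT5, CCT7, CCT8, CCT6A and CCT3, after which the ring closes. In that order the genes that fell, CCT4, CCT2, CCT7 and CCT8, lie in one arc with CCT5 between them, and TCP1, CCT6A and CCT3 are neighbours in the other arc. This arrangement was looked at after the values were seen and was not tested. The genes that fell include CCT2 and CCT4, known as subunits that bind ATP tightly, and CCT7 and CCT8, known as subunits that bind it weakly.

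**Figure D3:**
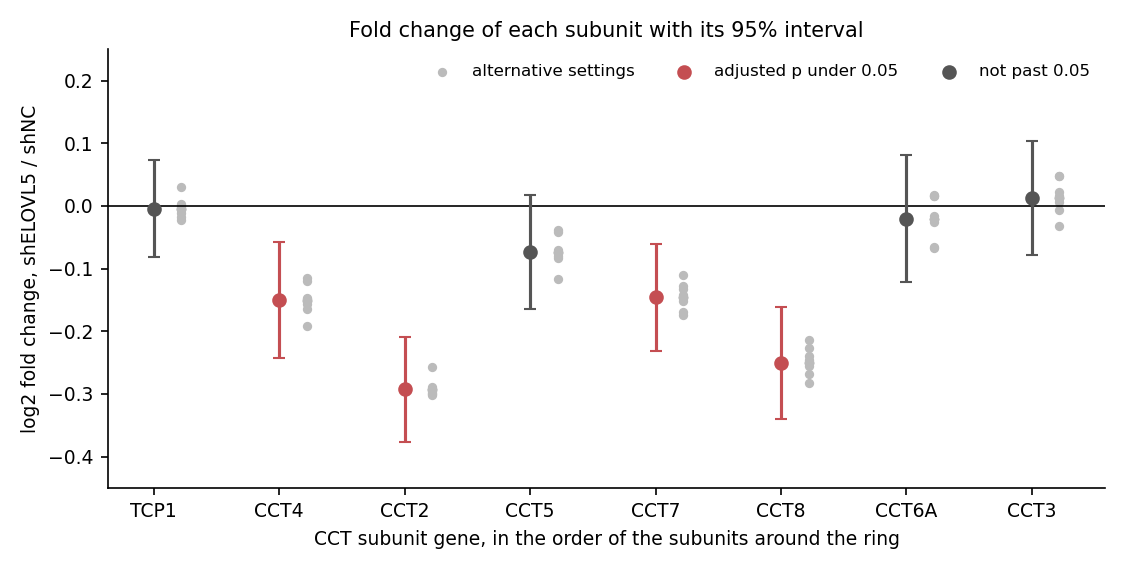
Log2 fold change of each subunit, shELOVL5 over shNC, with its 95% interval (bars), in ring order; grey points are the values under the alternative settings. CCT2 and CCT8 lie lowest, at -0.29 and -0.25, and TCP1, CCT6A and CCT3 lie about 0.

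Although each ring holds one copy of each subunit, the transcripts were not equally abundant. Per kilobase of the principal transcript, CCT7 was highest in shNC at 254 ± 4.24 CPM per kb, and TCP1 (250 ± 2.18) and CCT3 (241 ± 9.99) lay within their spread of one another or close to it. CCT2 (213 ± 0.336) and CCT8 (197 ± 5.19) came next. CCT4 (136 ± 1.29) and CCT6A (129 ± 4.91) were close to each other and CCT5 was lowest (105 ± 3.63 CPM per kb; SD, n = 2). In shELOVL5 the mean level of CCT7 was 229 ± 4.47 CPM per kb, below TCP1 (249 ± 2.26) and CCT3 (244 ± 4.21), and CCT2 stood at 174 ± 0.929. The order depends on the length used: over all annotated exons of a gene, CCT4 was the fourth and CCT2 the sixth in shNC, with CCT7 still at the top and CCT5 at the bottom.

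Copies of the subunit genes elsewhere took few counts. GENCODE names 13 pseudogenes of 6 subunits, and in any library their counts came to at most 4.86% of those of CCT6A, 1.33% of those of CCT8 and 0.161% of those of TCP1. When they were summed into their subunit, the same 4 subunits were called. CCT6B, the testis form of the zeta subunit, had 21 to 54 counts per library, and CCT8L2 had none. Of the CCT-like family members that were tested, CCT6B, MKKS, BBS10 and BBS12, of which the last 3 help to assemble the BBSome of cilia, 0 of 4 passed, with 0 also at an unadjusted p under 0.05 and 0 by DESeq2 and by limma-voom. Over all tested genes 11.2% were called lower and 9.22% higher, so 0 of 4 says little about these genes.

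By GENCODE gene bounds, several subunit genes start near another gene on the opposite strand, and the distances given here are between those bounds. RefSeq starts lie further in, by 147 bases for TCP1, 133 or 148 for CCT4, 616 for CCT5 and 888 for CCT7. COMMD1 overlaps the start of CCT4 and does not lie back to back with it. MRPL18, a mitochondrial ribosomal protein gene that starts 63 bases from TCP1, was at 54.4 and 57.5 CPM in shNC and 74.1 and 65.7 CPM in shELOVL5. It rose (log2 fold change 0.32, SE 0.0857, adjusted p = 0.0232), and its 95% interval of 0.13 to 0.51 does not overlap that of TCP1. The 62 bases that lie between the annotated exons of both genes (chr6:159789750-159789811, GRCh38.p14, TCP1 strand, ETS core and CCAAT box complement in capitals) are these.
TCP1 to MRPL18: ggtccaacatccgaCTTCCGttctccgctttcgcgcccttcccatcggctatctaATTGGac

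PSPH, which encodes the last enzyme of serine synthesis and starts 26 bases from CCT6A, fell from 38.4 and 33.1 to 24.4 and 27.4 CPM (log2 fold change -0.47, SE 0.119, adjusted p = 0.0190). Its interval of -0.73 to -0.20 does not overlap that of CCT6A, and the gene has a partial copy elsewhere, so its counts are uncertain. Both calls rested on single libraries and on the low-count filter (0.0747 and 0.0660 without it): without shELOVL5 replicate 1 the adjusted p was 0.224 for MRPL18 and 0.145 for PSPH, and without shNC replicate 1 it was 0.0819 and 0.114. PRADC1, 182 bases from CCT7, fell with it in direction (36.6 and 35.8 to 28.7 and 28.7 CPM, adjusted p = 0.0396), but not when any 1 library was left out (adjusted p = 0.0843 to 0.156) nor by DESeq2 (0.111), limma-voom (0.0503) or total-count scaling (0.0608). COMMD1, 80 bases from CCT4, and ATPSCKMT, 24 bases from CCT5, did not pass, with log2 fold changes of 0.02 (95% interval -0.35 to 0.39) and -0.50 (-1.12 to 0.13). How the difference within each pair compares with its error was not tested. The sources used here do not say whether strand was used in counting, so reads in overlapping parts, such as the shared ends of TCP1 and ACAT2, may be assigned to either gene.

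**Figure D4:**
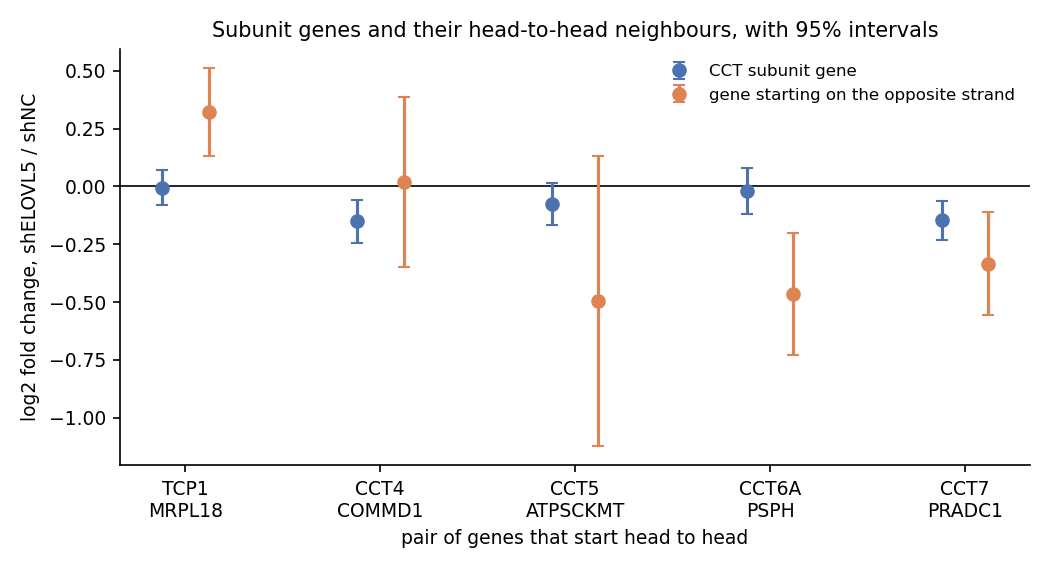
Log2 fold change, shELOVL5 over shNC, of 5 subunit genes and the gene that starts next to each on the opposite strand, with 95% intervals. The intervals of MRPL18 and PSPH lie clear of those of TCP1 and CCT6A, and the other 3 pairs overlap.

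Of 9 tested prefoldin and prefoldin-like genes 3 fell and 0 rose (median log2 fold change -0.12), where 11.2% of all tested genes were lower and 9.22% higher. Under total-count scaling, and without shNC replicate 1, 1 gene of this list was called higher. VBP1, the gene of prefoldin subunit 3, moved more than any chaperonin subunit: it was at 89.6 and 79.3 CPM in shNC and 39.9 and 38.6 CPM in shELOVL5. Both knockdown libraries were far below both controls, with a log2 fold change of -1.11 (SE 0.0869, adjusted p = 1.48e-05) that passed in every setting tried. The prefoldin-like genes URI1 (-0.42) and PDRG1 (-0.40) also fell, from 95.7 and 106 to 82.1 and 68.6 CPM and from 54.3 and 45.1 to 36.9 and 38.3 CPM. URI1 did not pass without shELOVL5 replicate 2 (adjusted p = 0.0793) or shNC replicate 2 (0.0611), nor PDRG1 without shNC replicate 1 (0.162) or either shELOVL5 library (0.129 and 0.0860), and neither passed with no low-count filter (0.0573 and 0.0770). The true prefoldin subunit genes other than VBP1 did not pass. Of 5 tested co-factor genes 1 rose: PDCD5, whose product binds CCT, went from 35.6 and 29.97 to 43.4 and 41.2 CPM (adjusted p = 0.0379). It did not pass by DESeq2 (0.0705) or limma-voom (0.0552), with no low-count filter (0.108), or without either shELOVL5 library or shNC replicate 2 (0.109 to 0.216).

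Of the actin and tubulin genes, whose products CCT folds, the calls were mostly higher for actins and mostly lower for tubulins, with several tubulins not past the test; the lists were not tested against each other. Of 6 tested actin and actin-related genes 5 rose and 0 fell, with a median log2 fold change of 0.26. Over all tested genes 9.22% were higher and 11.2% lower, and among those as abundant as the subunits 23.0% and 35.1%. By mean level ACTR2 and ACTR3 lie in that range, and ACTB, ACTG1, ACTA2 and ACTG2 do not. The abundant ACTB went from 6067 and 6318 to 7542 and 7373 CPM and ACTG1 from 3962 and 4111 to 4558 and 4550 CPM, and the rare ACTA2 and ACTG2 rose by 3.35 and 1.94 on the log2 scale. ACTR2, of the ARP2/3 nucleator, rose (0.25, adjusted p = 0.00181) and ACTR3 had 0.06 (adjusted p = 0.356). Summed over the list, the level was 10742 and 11138 CPM in shNC and 12991 and 12834 CPM in shELOVL5.

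Of 16 tested tubulin genes 8 fell and 2 rose, with a median log2 fold change of -0.13, against 11.2% lower and 9.22% higher over all tested genes. Among genes as abundant as the subunits these shares were 35.1% and 23.0%, but of the tubulins only TUBA1A, TUBA1C, TUBB and TUBB4B lie in that range. TUBA1A, an alpha tubulin gene, was at 484 and 542 CPM in shNC and 363 and 341 CPM in shELOVL5, a log2 fold change of -0.54 that passed in every setting tried. TUBB3 (-0.86), TUBB4A (-0.29), TUBB (-0.16), TUBA1C (-0.16), TUBB4B (-0.15) and TUBA1B (-0.11) fell as well. TUBA1B, the most abundant, went from 3625 and 3516 to 3267 and 3344 CPM. The 2 that rose, named after their values were seen, were TUBA4A, at 5.83 and 6.04 against 10.01 and 10.95 CPM, and the gamma tubulin gene TUBG1 (0.19). Without shELOVL5 replicate 1, 2 tubulin genes fell and 0 rose, and without shELOVL5 replicate 2, 1 fell and 1 rose; TUBA1B, TUBA1C, TUBB, TUBB4A and TUBB4B missed the threshold in both cases and TUBB3 in the second. TUBA1B also missed it under total-count scaling (adjusted p = 0.0923), and with no low-count filter 5 tubulin genes fell and 1 rose. Summed tubulin levels were 6013 and 5980 CPM in shNC and 5395 and 5417 CPM in shELOVL5. Actin and tubulin genes are near-identical within each family, so counts may be split between members.

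**Figure D5:**
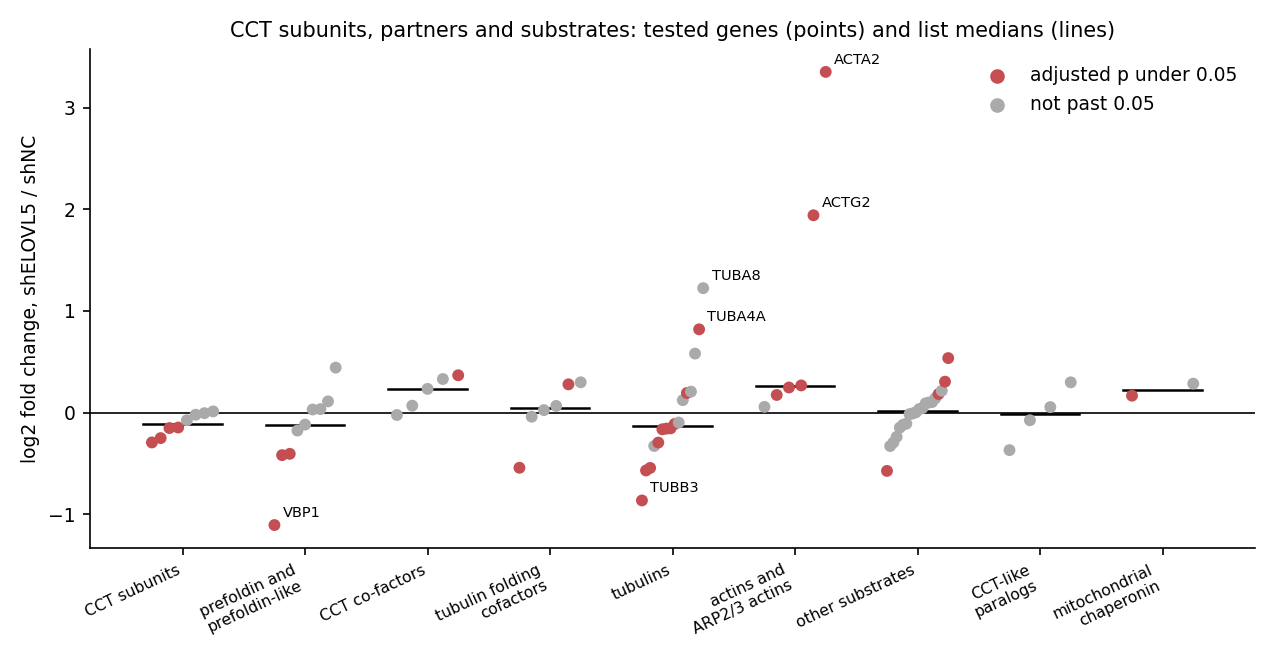
Log2 fold change, shELOVL5 over shNC, of the tested genes of each list (points; red where the adjusted p was under 0.05) with the list's median (line). The subunits lie between -0.29 and 0.01, tubulins lie mostly below 0 and actins above it, and VBP1 stands lowest among the prefoldin genes.

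Tubulin folding cofactors were split. TBCD, which helps to join alpha and beta tubulin, rose from 139 and 143 to 164 and 177 CPM, though not without shELOVL5 replicate 2 (adjusted p = 0.0730), and its regulator ARL2 fell from 32.7 and 39.9 to 25.5 and 24.4 CPM, though not without shNC replicate 2 (0.0741) or either shELOVL5 library (0.0595 and 0.0779). The other 4 of 6 tested did not pass. Of 20 other substrate genes 3 rose and 1 fell (median 0.02), near the 9.22% and 11.2% of all tested genes: DCAF7 (0.30), BBS2 (0.54) and GNB2 (0.18) were higher and STRN3 (-0.57) was lower. GNB2 missed the threshold with no low-count filter (0.0540) or without shNC replicate 1 (0.0542) or either shELOVL5 library (0.156 and 0.0567). GNB1 (-0.01, positive under total-count scaling and without shNC replicate 1) and PLK1 (0.10) did not pass, except PLK1 under total-count scaling (adjusted p = 0.0456).

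The cytosolic and mitochondrial chaperonins were not tested against each other. Of the 2 genes of the mitochondrial chaperonin 1 was called higher and 0 lower, where 9.22% of all tested genes were higher and 11.2% lower. HSPD1, its ring subunit, was at 556 and 540 CPM in shNC and 616 and 615 CPM in shELOVL5 (log2 fold change 0.17, adjusted p = 0.00848), though it missed the threshold without either shELOVL5 library (0.0865 and 0.0639). Its lid gene HSPE1 had 73.9 and 58.8 against 76.1 and 85.7 CPM (adjusted p = 0.129). Of the factors described elsewhere as acting on CCT genes, HSF1 was at 159 and 169 CPM in shNC and 153 and 158 CPM in shELOVL5 and HSF2 had a log2 fold change of -0.02, and neither passed. MYC fell from 171 and 183 to 102 and 108 CPM (-0.75). Whether MYC bears on the subunit levels was not tested.

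Among the genes whose values over the 4 libraries were most like the mean profile of the 8 subunits were KAT8, TOP2B, USB1 and BRD3, with root mean square differences of 0.0026 to 0.0056 on the log2 scale. The subunits themselves differed from their own mean profile by 0.018 (CCT7) to 0.089 (CCT2). Of 8574 other genes of at least 20 CPM, 1182 (13.8%) lay as near to that profile as the median subunit, and 68 lay nearer than the closest subunit. The median distance falls between those of CCT6A and TCP1, whose log2 fold changes were -0.02 and -0.005. Nearly flat genes can therefore count as near, and the share does not tell how common a fall of this size is.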

How the data were processed

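The deposited file holds whole-number read counts per Ensembl gene, not normalized, for 2 shNC and 2 shELOVL5 libraries of J.gamma1 cells, grouped by their titles. Per the submitters' processing notes, which give no order or role, HISAT2 2.2.0, StringTie and genome build hg38 were used; for annotation release, counting step and strand setting: not given in the sources used here. Per the labels' protocols, RNA was isolated with TRIzol and libraries were made with an Illumina TruSeq RNA kit.

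Symbols came from a gene name table (56105 of 64252 identifiers matched) and positions from GENCODE 29; TBCE had no matched identifier. Counts were fitted with edgeR 4.0.16 in R 4.3.3 (filterByExpr, minimum count 10; TMM; glmQLFit with robust=TRUE; two-sided; group only), with Benjamini-Hochberg adjustment over 17461 genes. SE is the fold change divided by the root of F. The fit was tested on simulated counts. DESeq2 1.42.0 and limma-voom (limma 3.58.1) were among 14 alternatives.

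The subunits, the 9 related lists and the rules were chosen with earlier results of these data known. All subunits were named; from each list, up to 4 genes past the threshold with the smallest p and those of at least 300 CPM; and genes starting within 1000 bases of a subunit, the targeted gene and the 5 most similar profiles (log2 of CPM + 0.5). Of these and of the marker genes, 1 each is not reported here.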

Additional observations from a re-analysis of the deposited data

How the results depend on the processing

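DESeq2, limma-voom, RLE factors, robust=FALSE, a filter of 1 CPM in 2 libraries and summed pseudogenes each called the same number of subunits, 4 lower and 0 higher. With no low-count filter, 2 subunits were lower, 899 of all genes were higher and 9 related genes were lower (14 with the filter); scaled by total counts only, 2 subunits were lower, and 1674 of all genes were lower and 1933 higher. Against a 1.2-fold change (edgeR's glmTreat), 0 subunits, 5 related and 641 of all genes were lower and 3 related (13 without that margin) and 408 of all genes were higher; 0 subunits had an unadjusted p under 0.05 in that test. With 1 library left out, 2 to 4 subunits, 4 to 12 related and 1176 to 1616 of all genes were lower, and 8 to 15 related and 696 to 1347 of all genes were higher, against 1952 and 1610 with all 4. Replicate numbers did not pair the libraries (correlation of same-numbered deviations 0.0055 over 11285 genes); with a replicate block 4 subunits, 1902 of all genes lower and 1551 higher were called, and PRADC1 was lost (adjusted p = 0.0580).

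Values that changed sign were all from genes that did not pass: TCP1 (0.031 by total counts, 0.0032 without shELOVL5 replicate 2), CCT3 (-0.0065 without shELOVL5 replicate 2, -0.033 without shNC replicate 1, up to 0.048 without shNC replicate 2), CCT6A (0.015 by total counts, 0.017 without shELOVL5 replicate 2, 0.016 without shNC replicate 1, down to -0.068 without shELOVL5 replicate 1), GNB1 (0.028 by total counts, 0.025 without shNC replicate 1, down to -0.049 without shNC replicate 2) and COMMD1 (-0.057 without shELOVL5 replicate 1, -0.022 without shNC replicate 2, up to 0.080 without shELOVL5 replicate 2). The cause was not tested. Of 28 other named genes that passed, 19 did not against a 1.2-fold change, 10 not with no low-count filter, 13 not without shELOVL5 replicate 1 and 14 not without replicate 2, fits with fewer samples. The subunits had 4990 or more counts per library; the effect of depth on the calls was not tested.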
